A study of Rattus norvegicus with 6 samples.

Results

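The genes described here are 10 receptors and bridging proteins through which phagocytic cells take up dying cells and debris: the receptor tyrosine kinases Axl, Mertk and Tyro3, called TAM receptors after their initials, their ligands Gas6 and Pros1, the integrin bridging protein Mfge8, and the receptors Megf10, Timd4, Stab1 and Lrp1. They were chosen by name for this role, from 30957 genes in the mRNA table, and all 10 passed the filter on low counts that left 15195 genes for testing. The data are RNA-seq of the sciatic nerve of 1-month-old Sprague-Dawley rats in 3 groups of 2 libraries, each from 1 rat. Injured nerves were taken 4 days (D4) and 7 days (D7) after a crush of the left sciatic nerve with forceps. Per the study's methods, rats of the control group underwent the same operation without the clamp. All rats were of this outbred stock, the control nerves are labelled normal control, and whole nerve tissue was sequenced. The comparisons of D4 and of D7 with control share the same 2 control libraries.

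As background, a dying cell or a fragment of degenerating axon or myelin exposes phosphatidylserine on its outer membrane. A phagocyte binds this lipid directly, through receptors such as Timd4 and Stab1, or through soluble bridging proteins: Gas6 and Pros1 join it to the TAM receptors, and Mfge8 joins it to integrins. In a crushed nerve the part beyond the injury breaks down, and Schwann cells and macrophages, resident and recruited, clear the debris before axons regrow.

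Library depth ranged from 18727255 to 25350886 fragments counted to mRNA genes, and the levels below are CPM (counts relative to the library's total) scaled by the TMM method. The Schwann cell markers Sox10, S100b, Erbb3, Ngfr and Mbp passed the filter, while Foxd3 was not analysed here. The 8 macrophage markers listed (Ptprc, Cd68, Adgre1, Csf1r, Aif1, Mrc1, Cd163 and Fcgr1a) summed to 328 and 363 CPM in control, 1087 and 1115 at D4, and 698 and 870 at D7. By the rule given in the next paragraph, 8 of 8 were upregulated at D4 and 7 of 8 at D7, against 11.2% and 9.83% of all genes. The part of this rise in the results below was not tested. The 5 adipocyte markers listed summed to 1315 and 1080 CPM in control, 309 and 154 at D4, and 7.09 and 438 at D7. The 2 D7 libraries thus stood far apart, and 0 of the 5 were called at either time. The part of this difference in the results below was not tested either. In bulk tissue, fewer cells of a type and less RNA per cell cannot be told apart.

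Among the 10 genes, 4 were upregulated in the control vs D4 group and 0 downregulated: Axl, Mertk, Tyro3 and Stab1. A gene is called upregulated or downregulated here at an adjusted p under 0.05 (the quasi-likelihood test of edgeR, adjusted by the method of Benjamini and Hochberg over all genes tested) and a change of at least 2-fold. Of all genes tested, 11.2% were upregulated and 10.7% downregulated by the same rule. The median log2 fold change was 0.541 over the 10 genes and -0.0353 over all genes. At D7, 1 of the 10 was upregulated (Tyro3) and 1 downregulated (Mfge8), against 9.83% and 9.02% of all genes, so that the D7 counts lie close to the background. Without TMM factors, which moved the median of all genes by 0.295, the D7 calls were 3 up (Axl, Tyro3 and Stab1) and 0 down. With no fold threshold, 6 of 10 passed at D4, against 44.2% of all genes, and 4 of 10 at D7, against 37.5%. The 2 libraries of D4 lay wholly above or below both control libraries for 9 of 10 genes, which held for 76.2% of all genes tested, and at D7 for 6 of 10, against 71.9%.

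**Figure D1:**
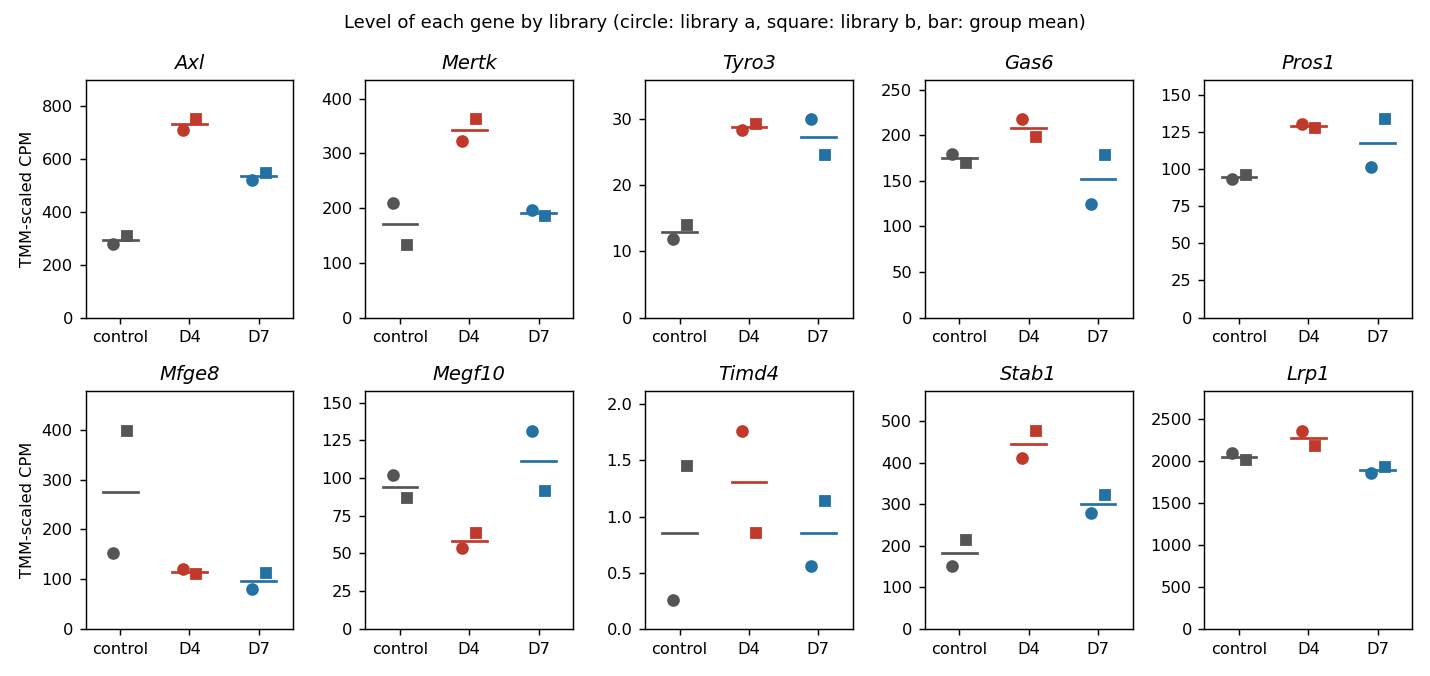
Level of each of the 10 genes in each of the 6 libraries, in TMM-scaled CPM on a linear axis that starts at 0, with circles for library a, squares for library b and bars for the mean of 2 libraries. The D4 libraries of Axl, at 709 and 748 CPM, lie above its D7 libraries and above its control libraries.

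The TAM receptors were the group in which every member was called at D4. Axl is the TAM receptor associated with inflamed tissue and is activated by Gas6. Its level was 277 and 309 CPM in control, 709 and 748 at D4 and 521 and 547 at D7. The 3 groups did not overlap, with D4 highest and control lowest. Axl was 2.49-fold higher at D4 than in control (log2 fold change 1.31 ± 0.10 SE, edgeR adjusted p = 0.000338). At D7 it was 1.82-fold higher (log2 0.87 ± 0.10, edgeR adjusted p = 0.00178), which passed the test on p but not the 2-fold threshold.

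Mertk is the TAM receptor on which macrophages rely most for the uptake of apoptotic cells. It measured 209 and 133 CPM in control, 323 and 362 at D4 and 197 and 185 at D7. The D4 libraries were the highest, and both D7 libraries lay between the 2 control libraries, which stood far apart. Mertk was 2.01-fold higher at D4 (log2 1.01 ± 0.21, edgeR adjusted p = 0.0114), at the edge of the fold threshold. Without control library b the log2 fold change at D4 was 0.71, and without D4 library b it was 0.92, so that either omission ended the call. At D7 the log2 fold change was 0.16 ± 0.21 (edgeR adjusted p = 0.570), and without control library b it was -0.13.

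Tyro3, the TAM receptor best known from neurons and other cells of the nervous system, had the lowest level of the group. It measured 11.9 and 14.0 CPM in control, 28.4 and 29.3 at D4 and 30.0 and 24.5 at D7. The control libraries were the lowest, and D4 and D7 overlapped. Tyro3 was 2.23-fold higher at D4 (log2 1.15 ± 0.15, edgeR adjusted p = 0.00187) and 2.10-fold higher at D7 (log2 1.07 ± 0.15, edgeR adjusted p = 0.00329). The D7 value fell under the 2-fold threshold without D7 library a (log2 0.95) and without control library a (log2 0.96). Tyro3 was the one gene of the 10 upregulated at both times.

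Since all 3 TAM receptors were called at D4, the 250 bases before the annotated start of each are shown from RefSeq (build GRCr8, not the Rnor_6.0 build of the deposited tables), 5′ to 3′ on the strand of the gene. Capitals mark matches, on either strand, to any of the motifs searched.
Axl, chr1:90424010-90424259, minus strand: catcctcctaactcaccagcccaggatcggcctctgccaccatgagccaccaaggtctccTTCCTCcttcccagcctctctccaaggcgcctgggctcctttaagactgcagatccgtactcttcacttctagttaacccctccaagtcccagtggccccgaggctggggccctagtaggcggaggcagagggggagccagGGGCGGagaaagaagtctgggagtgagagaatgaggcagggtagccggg
Mertk, chr3:136392324-136392573, plus strand: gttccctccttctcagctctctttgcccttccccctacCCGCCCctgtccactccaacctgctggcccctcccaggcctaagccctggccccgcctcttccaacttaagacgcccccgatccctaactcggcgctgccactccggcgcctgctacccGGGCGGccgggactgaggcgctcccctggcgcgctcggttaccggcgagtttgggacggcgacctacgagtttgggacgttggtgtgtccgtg
Tyro3, chr3:127231653-127231902, plus strand: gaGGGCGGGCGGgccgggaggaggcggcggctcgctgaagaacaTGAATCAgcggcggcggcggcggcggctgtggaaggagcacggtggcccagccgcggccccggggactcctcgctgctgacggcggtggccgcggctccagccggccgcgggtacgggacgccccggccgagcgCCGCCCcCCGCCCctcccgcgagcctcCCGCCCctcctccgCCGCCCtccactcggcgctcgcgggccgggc

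The motifs were chosen after the values were seen. They were the AP-1-like pattern TGANTCA, the GC box GGGCGG, the PU.1 core GAGGAA, the STAT site TTCNNNGAA and the CCAAT box CCAAT. In these patterns N stands for any base. A GC box was found in all 3 TAM promoters and in 7 of the 9 promoters matched, against 30.5% of 33469 promoters of the same length. In the Tyro3 promoter the first GC boxes overlap each other. The Tyro3 promoter was the one of the 9 with a match to the AP-1-like pattern, as TGAATCA. That pattern matched in 6.34% of all promoters. The PU.1 core was found in Axl, Mfge8 and Stab1, against 23.3% of all promoters. A STAT match was found in Pros1 and a CCAAT match in Timd4, against 7.67% and 34.0% of all promoters. The GC content of the 250 bases was 61.6% in Axl, 68.0% in Mertk and 82.0% in Tyro3, against a median of 51.2% over all promoters. A match describes the letters and not a bound site. Megf10 was not among the promoters matched.

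Neither TAM ligand was called at D4 or D7. Gas6, the ligand that binds all TAM receptors, measured 180 and 170 CPM in control, 218 and 198 at D4 and 125 and 178 at D7. D4 was the highest group, and the D7 libraries stood apart on either side of control library b. The log2 fold change was 0.25 ± 0.17 at D4 (edgeR adjusted p = 0.278) and -0.20 ± 0.17 at D7 (edgeR adjusted p = 0.385), where its sign turned without TMM factors (0.09). Pros1, protein S, is an anticoagulant of plasma that also activates Mertk and Tyro3. It measured 93.4 and 96.0 CPM in control, 131 and 127 at D4 and 102 and 133 at D7. All 4 libraries after the crush lay above both controls. Its log2 fold change was 0.45 ± 0.14 at D4 (edgeR adjusted p = 0.0425), which passed the test on p but not the fold threshold, and 0.31 ± 0.14 at D7 (edgeR adjusted p = 0.125).

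**Figure D2:**
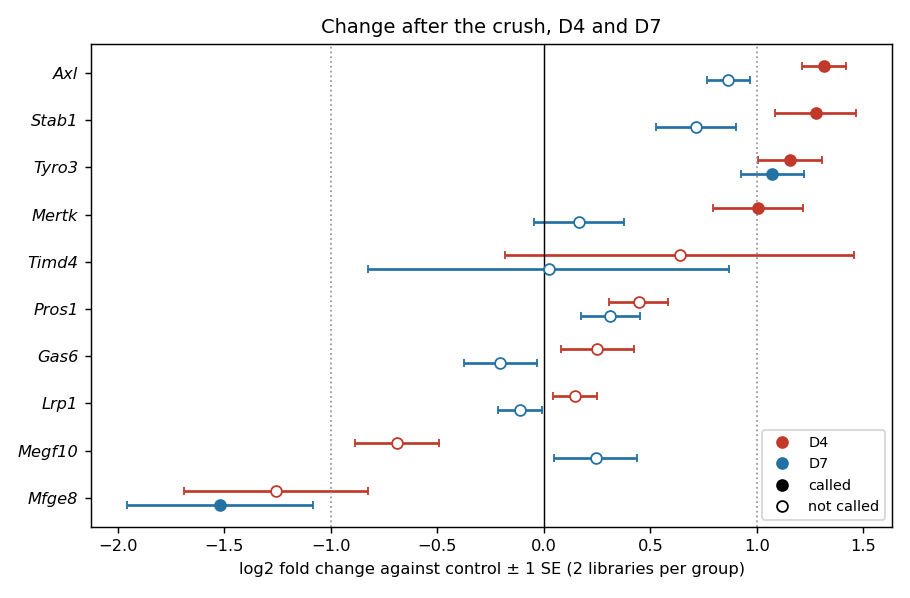
Log2 fold change of each gene against control at D4 (red) and D7 (blue), with bars of 1 SE from the edgeR fit, filled points for genes called and dotted lines at the 2-fold threshold. Axl, Stab1, Tyro3 and Mertk are filled at D4, and Tyro3 and Mfge8 at D7.

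Mfge8, also called lactadherin, bridges phosphatidylserine to integrins and is made by macrophages and by vascular smooth muscle, among other cells. It measured 152 and 398 CPM in control, 121 and 109 at D4 and 79.3 and 113 at D7. Every library after the crush lay below both controls, and control library b stood far above the other 5. The log2 fold change was -1.26 ± 0.43 at D4 (edgeR adjusted p = 0.0571) and -1.52 ± 0.44 at D7 (edgeR adjusted p = 0.0375), so that Mfge8 was downregulated at D7 by the rule. Without control library b the D7 value was -0.67 (edgeR adjusted p = 0.0710) and the call was lost. It was also lost without either D4 library, at an unmoved fold, and without either D7 library, when only control and D7 were fitted, and without TMM factors (-1.23). Without control library a it was called at D4 as well, at -1.79. The contractile smooth muscle genes Acta2, Myh11, Tagln, Cnn1, Smtn and Mylk, a list chosen after the values were seen, summed to 1117 and 6435 CPM in control, 768 and 971 at D4 and 467 and 1209 at D7. They were thus highest in the same control library as Mfge8, and their part in its value was not tested.

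Of the other receptors, Stab1 was upregulated. Stab1, or stabilin-1, is a scavenger receptor of macrophages and some endothelial cells that binds phosphatidylserine. It measured 152 and 215 CPM in control, 411 and 477 at D4 and 280 and 322 at D7. The groups did not overlap, with D4 highest and D7 between D4 and control, the same order as for Axl. Stab1 was 2.42-fold higher at D4 (log2 1.28 ± 0.19, edgeR adjusted p = 0.00307) and 1.64-fold higher at D7 (log2 0.71 ± 0.19, edgeR adjusted p = 0.0285), the latter under the fold threshold.

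Megf10, a receptor with many EGF-like repeats that is related to the engulfment receptors of flies and worms, moved the other way at D4. It measured 102 and 86.6 CPM in control, 53.4 and 63.4 at D4 and 131 and 91.5 at D7. Both D4 libraries were the lowest, and the D7 libraries overlapped control. The log2 fold change was -0.69 ± 0.20 at D4 (edgeR adjusted p = 0.0321), past the test on p but not the fold threshold, and 0.24 ± 0.20 at D7 (edgeR adjusted p = 0.362). The D7 value against D4 was 0.93 ± 0.20 (edgeR adjusted p = 0.0569), and it was called without D7 library b (log2 1.17, edgeR adjusted p = 0.0295).

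Lrp1 is a large endocytic receptor of Schwann cells, macrophages and fibroblasts that takes up myelin debris and many other ligands. It had the highest mean level per length in every group, though Mfge8 was above it in control library b and Axl in D4 library b, and it measured 2087 and 2005 CPM in control, 2357 and 2175 at D4 and 1854 and 1928 at D7. The groups did not overlap, but the fold changes were small: the log2 fold change was 0.15 ± 0.10 at D4 (edgeR adjusted p = 0.289) and -0.11 ± 0.10 at D7 (edgeR adjusted p = 0.420), and the D7 sign turned without TMM factors (0.18). Timd4, a phosphatidylserine receptor of resident macrophages, was near the limit of detection, with 5 and 24 fragments in control, 43 and 23 at D4 and 12 and 23 at D7. All groups overlapped, and with log2 fold changes of 0.64 ± 0.82 at D4 and 0.02 ± 0.85 at D7 no difference was detectable at this depth.

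The contrast of D7 with D4 called 0 of the 10 genes by edgeR, against 2.18% of all genes, and 0 by DESeq2, against 3.42%. With no fold threshold, 5 of the 10 passed by DESeq2 (Axl, Mertk, Megf10, Stab1 and Lrp1), against 12.2% of all genes. By edgeR, at an unadjusted p under 0.05, 6 of 10 passed, against 24.7% of all genes. The log2 fold change of D7 over D4 was negative for 9 of the 10, all but Megf10, with a median of -0.355 against 0.0115 over all genes. It was -0.84 ± 0.21 for Mertk (edgeR adjusted p = 0.0804, and 0.0229 or 0.0214 without control library a or b, which enter the same fit), -0.56 ± 0.19 for Stab1 (edgeR adjusted p = 0.138), -0.45 ± 0.10 for Axl (edgeR adjusted p = 0.0651) and -0.08 ± 0.14 for Tyro3 (edgeR adjusted p = 0.779). The libraries of D7 and D4 did not overlap for 6 of the 10 genes, against 60.6% of all genes.

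Levels can be compared between genes only per length, for which the deposited FPKM (fragments relative to gene length and to the library's total) were used. In control, Lrp1 was highest at 122 ± 1.3 (SD, n = 2), followed by Mfge8 at 88.5 ± 57.2, whose libraries overlapped those of Lrp1 and Axl. Axl stood at 52.2 ± 4.88, Gas6 at 43.6 ± 1.09, Mertk at 32.0 ± 9.58, Pros1 at 25.5 ± 0.953 and Stab1 at 22.8 ± 5.95, and of these the last 3 overlapped, each with the next. Megf10 (10.8 ± 1.04), Tyro3 (3.05 ± 0.410) and Timd4 (0.739 ± 0.735) followed without overlap. At D4, Axl reached 158 ± 6.13 and overlapped Lrp1 at 164 ± 9.12. Mertk came next at 78.7 ± 6.44, then Stab1 at 67.1 ± 7.16, which overlapped Gas6 at 63.4 ± 4.04. Stab1 had been below Gas6 in both control libraries. At D7, Lrp1 (138 ± 5.19) and Axl (116 ± 5.18) stood clear of the rest, while the means of Gas6, Stab1, Mertk, Pros1 and Mfge8 ran from 46.5 down to 37.7 with each overlapping the next. These FPKM carry no TMM factor, and dividing by it raised the control means and lowered the others (Axl 59.6 in control, 148 at D4 and 109 at D7) without changing the order of the means in a group.

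**Figure D3:**
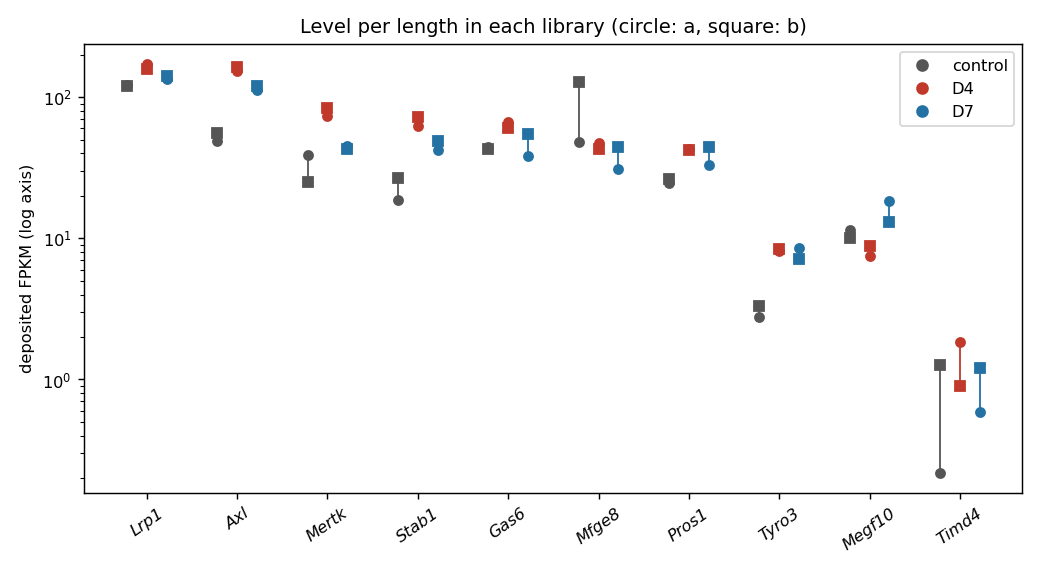
Deposited FPKM of each gene in each library on a log axis, with the genes in order of their D4 means and a line joining the 2 libraries of a group. Axl rises from 48.7 and 55.6 in control to 154 and 163 at D4, beside Lrp1.

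Within a library, ratios of FPKM do not depend on the scaling between libraries. Axl made up 54.0% and 66.1% of the summed TAM receptor FPKM in control, 65.2% and 63.9% at D4 and 67.8% and 70.5% at D7. Mertk made up 43.0% and 30.0%, then 31.4% and 32.7%, then 27.1% and 25.3%, and Tyro3 between 3.05% and 5.15%. The Axl share was highest and the Mertk share lowest in both D7 libraries, while control and D4 overlapped for both. The ratio of Gas6 to Pros1 was 1.79 and 1.64 in control, 1.54 and 1.44 at D4 and 1.14 and 1.24 at D7. Gas6 was the more abundant ligand in every library, and the ratio was lower in each later group, with no overlap. The summed TAM receptors over the summed ligands gave 1.3 and 1.22 in control, 2.16 and 2.48 at D4 and 2.33 and 1.71 at D7, with both later groups above control. These ratios are given as a description, with no test.

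**Figure D4:**
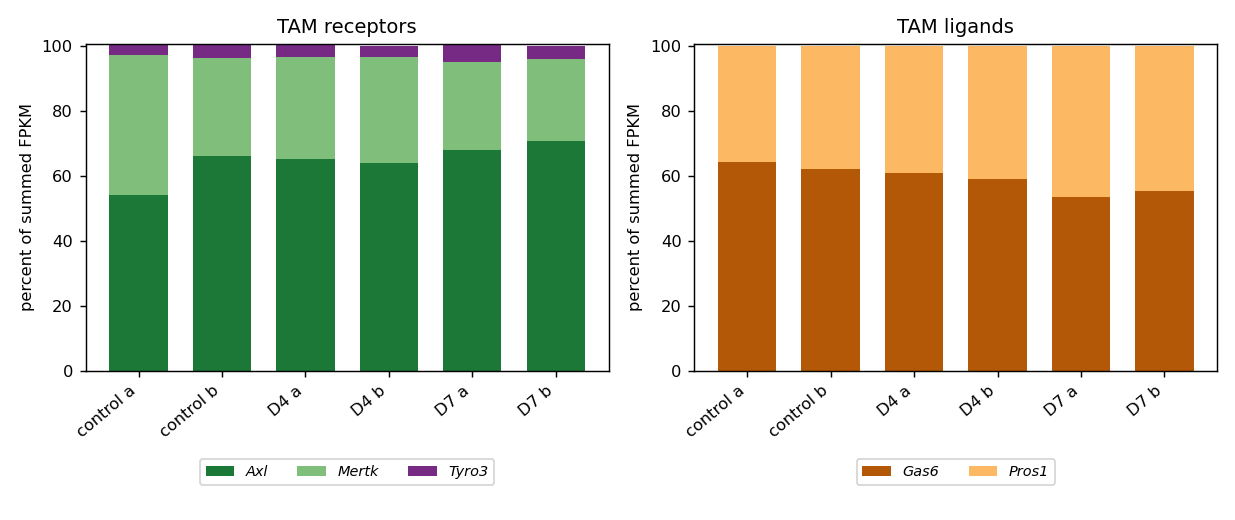
Share of each TAM receptor in the summed FPKM of the 3 receptors (left) and of each ligand in the summed FPKM of Gas6 and Pros1 (right), in percent, 1 bar per library from 0 to 100. The Gas6 share falls from 64.1% and 62.1% in control to 53.3% and 55.3% at D7.

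Set against the summed macrophage markers of the same library, Axl stood at 0.765 and 0.943 in control, 0.636 and 0.688 at D4 and 0.746 and 0.629 at D7. Mertk stood at 0.576 and 0.405, then 0.290 and 0.333, then 0.282 and 0.213, and for Axl and Mertk alike the quotient was lower in all 4 libraries after the crush than in either control. The quotient of Stab1 was 0.419 and 0.657 in control, 0.369 and 0.439 at D4 and 0.401 and 0.370 at D7, and the groups overlapped. The quotient of Tyro3 ran from 0.0254 to 0.0430 over the 6 libraries, with both D4 libraries below the other 4 and with overlap between D7 and control.

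The lncRNA table held 20 transcripts that overlap the span of 7 of the 10 genes, 18 of them wholly inside. There were 5 at Lrp1, 4 at Axl, 4 at Megf10, 2 each at Mertk, Tyro3 and Stab1, and 1 at Timd4. Of these, 14 passed the filter and 2 were upregulated at D4, against 5.19% of all lncRNAs tested. NONRATT011745.2, the second of the 2, passed the filter only through the D4 libraries, where it is high. Its place in this count is thus partly set by the filter. A newly predicted transcript, MSTRG.18450.1, lies within Mertk (Rnor_6.0, chr3:121236788-121248559). It had 940 and 500 fragments in control, 1893 and 2554 at D4 and 1173 and 1189 at D7, with D4 highest (log2 1.47 at D4, edgeR adjusted p = 0.0314). Its fragments equalled 23.2% and 22.7% of the Mertk count in control, 24.0% and 26.0% at D4 and 28.0% and 31.7% at D7, and control library a was the higher control for both.

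NONRATT011745.2, within Stab1 (Rnor_6.0, chr16:7223259-7225053), had 3 and 1 fragments in control, 23 and 17 at D4 and 8 and 7 at D7 (log2 3.11 at D4, edgeR adjusted p = 0.0339). Whether the counting used strand is not stated, so reads of these transcripts and of their host genes may be shared. Both calls were lost with the library letter as a replicate block. When each of the 6 libraries was left out in turn, MSTRG.18450.1 was called in 1 omission, that of control library a, and NONRATT011745.2 in 0. At D7 edgeR called 0 of the 14, against 5.79% of all lncRNAs, with 4 at an unadjusted p under 0.05, against 25.5% of all, while DESeq2 called 2, against 10.4% of all.

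The rest of the pathway was read from 5 lists with 71 genes, of which 66 were tested. At D4, 27 were upregulated and 4 downregulated (median log2 fold change 0.548), and at D7 25 and 2 (median 0.52). Of all genes tested, 11.2% rose and 10.7% fell at D4 (median -0.0353), and 9.83% rose and 9.02% fell at D7 (median 0.0121), and the counts of each list below stand beside these shares. Among 24 further receptors, of which Stab2, Marco and Megf11 did not pass the filter, 10 of 21 rose and 1 fell at D4, and 8 rose at D7, against 11.2% and 10.7% of all genes at D4 and 9.83% up at D7. The 10 include the complement receptor chains Itgam and Itgb2, the scavenger receptor Msr1, and Trem2 with its adaptor Tyrobp. They also include Havcr1 (0 and 1 fragments in control), Olr1 (4 and 6) and Cd300lb (4 and 7). These last passed the filter only through libraries after the crush. Their rises, here and in the counts over the 66 genes, are thus partly set by the filter. Olr1, a receptor for oxidised lipoprotein, rose by 5.44 on the log2 scale at D4 and by 5.13 at D7, and Cd300lf, a lipid-binding receptor of myeloid cells, by 3.19 and 2.97. Olr1 reached 257 and 381 fragments at D4, but its control level was near the limit of detection, so that the size of its fold change is uncertain. Adgrb1, a phosphatidylserine receptor also called BAI1, had 268 and 265 fragments in control, 47 and 56 at D4 and 638 and 323 at D7. It was downregulated at D4 (log2 -2.89, edgeR adjusted p = 0.00126) and not called at D7 (log2 0.63, edgeR adjusted p = 0.143). The D7 value rests on the library: it was 0.13 without D7 library a, and 1.01 and called (edgeR adjusted p = 0.0146) without D7 library b.

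Of 13 further bridging proteins and ligands, with Tulp1 not tested, 9 of 12 rose at D4 (11.2% of all genes) and 7 at D7 (9.83%), and 0 fell (10.7% and 9.02%). They include the complement chains C1qa, C1qb and C1qc and the lipid carrier Apoe. Lgals3, the lectin galectin-3, rose by 3.19 at D4 and 2.42 at D7. Edil3, which like Mfge8 bridges phosphatidylserine to integrins, rose by 2.65 and 3.39, from 10 and 5 fragments in control to 103 and 28 at D4. It passed the filter only through libraries after the crush, so that its calls are partly set by the filter. Its D4 call was lost without D4 library a (log2 1.31) and without either control library, and its D7 call without D7 library a or either control library.

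The 4 genes of ligand carboxylation and receptor shedding gave 0 calls at D4. They are Ggcx and Vkorc1, which serve the vitamin K-dependent modification of Gas6 and Pros1, and the proteases Adam10 and Adam17, which shed TAM receptors. At D7 Adam17 rose by 1.34 on the log2 scale (edgeR adjusted p = 0.00152). Adam10 and Vkorc1 were lower than in control and passed the test on p at both times, but not the fold threshold. Adam10 stood at -0.675 at D4 (edgeR adjusted p = 0.00379) and -0.723 at D7 (edgeR adjusted p = 0.00384). Vkorc1 stood at -0.569 (edgeR adjusted p = 0.0139) and -0.536 (edgeR adjusted p = 0.0204). Ggcx did not pass the test on p at either time. Of 16 genes of the cytoplasmic machinery, 15 were tested, Dock1 was not analysed here, and 5 rose and 2 fell at D4, with 5 and 1 at D7. The shares over all genes were 11.2% up and 10.7% down at D4, and 9.83% and 9.02% at D7, so that the falls lie near the background. The lipid exporter Abca1 rose by 3.39 at D4 and 3.74 at D7, and Vav1, an exchange factor for Rac in blood cells, by 2.87 and 2.69. The adaptor Gulp1 fell (-1.58) at D4 and was -0.87 at D7, under the fold threshold, and Elmo1, the partner of Dock proteins, fell at D4 (-1.22, and -0.93 and not called without TMM factors) and D7 (-1.68). Of 14 genes of phosphatidylserine exposure, find-me and do-not-eat-me signals, 3 rose and 1 fell at D4 (all genes 11.2% and 10.7%), and 4 rose and 1 fell at D7 (9.83% and 9.02%). The chemokine receptor Cx3cr1 rose by 3.19 and 2.66 and the channel Panx1 by 1.90 and 1.78, while the nucleotide receptor P2ry2 fell (-2.57 and -2.61). The scramblases Xkr8 and Ano6 and the do-not-eat-me signal Cd47 were not called at either time. Cd47 passed the test on p at both times but not the fold threshold. Its log2 fold change was -0.64 at D4 (edgeR adjusted p = 0.00719) and -0.63 at D7 (edgeR adjusted p = 0.00953).

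**Figure D5:**
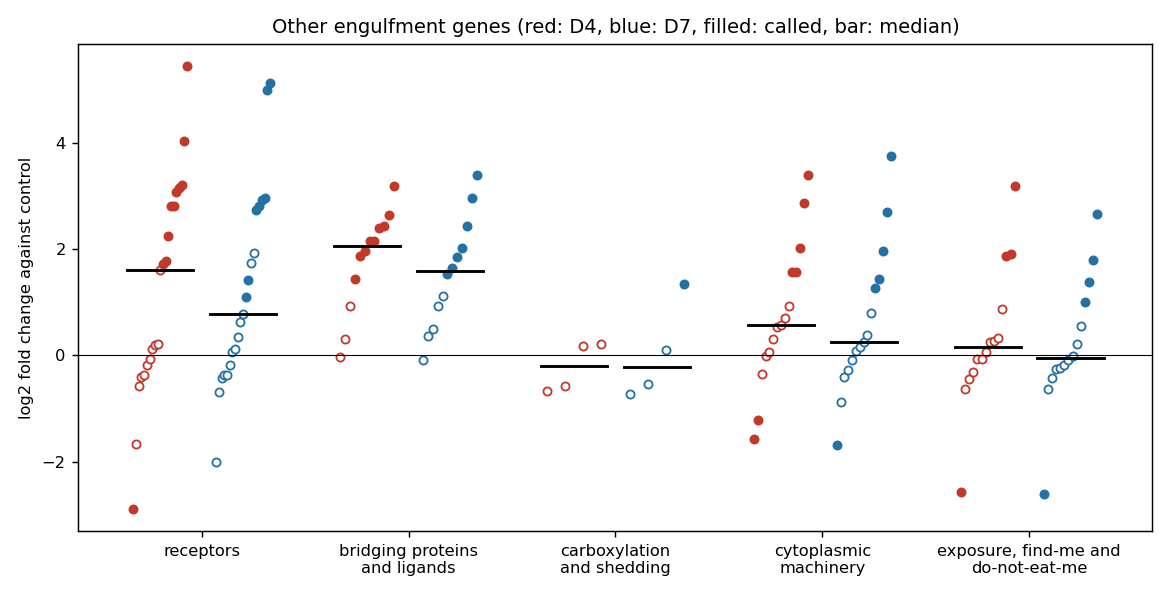
Log2 fold change against control of the 66 tested genes of the 5 wider lists, at D4 (red) and D7 (blue), with filled points for genes called and a bar at each list's median. Bridging proteins and ligands have the highest median at D4, 2.05, and carboxylation and shedding the lowest, -0.193.

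The genes with a profile over the 6 libraries most like that of each TAM receptor and ligand were taken by the smallest root mean square difference of log2 CPM centred on each gene's own mean. For Axl these were Grk6 (0.0527), Fn1 (0.0614) and Il17ra (0.0614). For Mertk they were Lrp8 (0.0904), Rassf4 (0.0941) and Alox5ap (0.132), a looser likeness. For Tyro3 they were Mroh1, Naa40 and Pdlim4, at 0.0647 to 0.0756. For Gas6 they were Sigirr, Psme1 and Nrros, at 0.0680 to 0.0785, and for Pros1 B4galt2, Capza1 and Mrpl23, at 0.0359 to 0.0519.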

How the data were processed

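Sciatic nerve RNA was depleted of rRNA and sequenced in pairs. The authors aligned reads with HISAT2 2.0.4 to Rnor_6.0, assembled transcripts and counted with StringTie 1.3.0, and deposited counts and FPKM per library for genes and for lncRNAs. Per the study's methods, counts were TMM-normalised before FPKM were calculated, but for the 10 genes the deposited FPKM equal the deposited counts over a constant length and the library total, with no TMM factor, and the length of each lncRNA is listed.

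Groups came from the sample labels. The 10 genes and all lists were chosen with earlier results of these data known. Counts were fitted in edgeR 4.0.16 (filterByExpr, TMM, quasi-likelihood test, 1 fit of 6 libraries, mRNA and lncRNA tables apart). A call needed an adjusted p (Benjamini-Hochberg) under 0.05 and a 2-fold change, and the SE is the log2 fold change over the root of the F statistic. DESeq2 1.42.0, other filters and scalings, a replicate block and omission of each library were alternatives. The fit was tested on simulated data. In the wider lists, examples were the 2 largest called rises and 2 largest called falls at D4 with at least 50 counts in a library. In addition, other members, called or not, were named for their function after their values were seen. A lncRNA overlapped a gene from 1 shared base. Depth ranged from 2694777 to 3043817 fragments for lncRNAs. With 2 rats per group, a p-value weighs a difference against a spread estimated from these few animals. That spread is pooled over the 3 groups and drawn toward that of the other genes or lncRNAs tested.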

Additional observations from a re-analysis of the deposited data

Results flagged for a closer look

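By the edgeR contrast of D7 with D4, 2 of the 66 tested genes of the wider lists were called, against 2.18% of all genes. The count thus lies near the background. Adgrb1 was higher at D7 than at D4 by 3.52 on the log2 scale (edgeR adjusted p = 0.0117), with 47 and 56 fragments at D4 and 638 and 323 at D7. Adam17 was higher at D7 by 1.15 (edgeR adjusted p = 0.0215), with 3869 and 4110 fragments at D4 and 8197 and 6174 at D7. Without D4 library a, or without D4 library b, this contrast called 0 genes in all, so that both calls were lost. None of the 10 engulfment genes was called in this contrast by edgeR or DESeq2. By edgeR, 6 of the 10 had an unadjusted p under 0.05, against 24.7% of all genes.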

How the results depend on the processing

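Of the comparisons of single genes and transcripts with the alternatives, 772 kept their direction and side of the threshold. A further 12 gained the call, 35 lost it and 11 turned in sign. The alternative with no fold threshold reuses the main fit, so its values and signs could not change and a call could only be gained. The count of the 10 genes called at D4 was 3 to 5 when a library was left out and 4 under DESeq2, RLE size factors and no TMM factors. The D7 count of 2 was 1 with only the 2 groups compared, 4 with no fold threshold, and 0 to 1 when a library was left out. It was 0 without D7 a. The D7 against D4 count was 0 to 1, with Megf10 called without D7 b. Over all genes that contrast called 331, against 520 by DESeq2, 0 without D4 a or D4 b, and 99 without D7 a. The cause of these changes was not tested, beyond the fewer libraries.

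The 2 lncRNA calls at D4 became 0 with no low-count filter, and 0 to 3 when a library was left out. At D7 the lncRNA count was 2 by DESeq2, 1 with only the 2 groups compared, and 0 to 2 when a library was left out. The calls in the wider lists kept within 1.5 times their counts of 31 at D4 and 27 at D7 under every alternative run.

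Signs turned for values that were not called. At D7, Gas6 was 0.09 and Lrp1 0.18 without TMM factors, and Timd4 was -0.01 by DESeq2. When a library was left out, the D7 value ran from -0.13 to 0.53 for Mertk, from -0.48 to 0.06 for Gas6, from -0.01 to 0.48 for Megf10 and from -0.77 to 1.70 for Timd4, whose D4 value ran from -0.15 to 2.31. The D7 against D4 value ran from -0.24 to 0.06 for Tyro3 and from -0.34 to 0.04 for Pros1. Leaving out the TMM factors moved the median of all genes by 0.288 at D4 and 0.295 at D7.

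Libraries share only a letter across groups (r of their deviations 0.0103, 0.195 and -0.134 for mRNA). With the letter as a replicate block the 10 genes gave 4, 2 and 0 calls at D4, D7 and D7 against D4, unmoved in number, while the 2 lncRNA calls at D4 became 0 and the calls over all genes at D7 against D4 fell to 248. A replicate block that pairs D4 library a with the b libraries, added once the values were known, gave 5 calls among the 10 genes at D4, 2 at D7 and 1 lncRNA call at D4. With 2 libraries per group and 1 left out, the lone library is assumed to vary like the others. FPKM recomputed from a length column was not run, as the mRNA table lists no length. Depth limits Timd4, at 5 to 43 fragments.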
